A study of Mus musculus with 20 samples.

Results

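The genes described here are 29 genes of cholesterol synthesis and of its control by SREBP2, chosen by symbol for their known roles, and they are 29 of the 53599 gene symbols counted in mouse liver. All 29 had counts high enough to be tested in every comparison. The study exposed mice from weaning, for 6 to 7 weeks, to drinking water with PFOA (perfluorooctanoic acid, a persistent fluorinated surfactant that activates the nuclear receptor PPARα) or to vehicle water, and sequenced RNA of whole liver. The PFOA dose was 8 µM, written with a lower-case m in the study's design text.

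Knockout (KO) mice lack PPARα, and hPPARa mice carry the human receptor, which the series title calls a transgene. The labels do not state the promoter that drives it, the strain, the deleted part of the mouse gene or the number of animals behind each library. The KO PFOA group had 3 male and 3 female libraries, and the KO vehicle group had 3 male libraries and 1 female library. The hPPARa PFOA group had 3 male and 2 female libraries, and the hPPARa vehicle group had 2 male and 3 female libraries. All groups, vehicle included, drank 0.5% sucrose and ate a custom diet modelled on American intake, with 51.8% of energy from carbohydrate, 33.5% from fat and 14.7% from protein. There is no wild-type group among the 20 libraries, and the labels do not state whether hPPARa mice keep the mouse gene. Total counts ranged from 14973673 to 17953860 per library. Levels are given in CPM, counts scaled to a common library size, which depend on transcript length and so are compared between libraries for 1 gene at a time.

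Cholesterol is built from acetyl-CoA through mevalonate, isoprenoid diphosphates, squalene and lanosterol, and the liver is a main site of its synthesis. SREBP2, encoded by Srebf2, is held in the endoplasmic reticulum with its escort SCAP by the INSIG proteins while sterols are plentiful. When sterols fall, SCAP carries SREBP2 to the Golgi, where proteases release the part that enters the nucleus and raises transcription of nearly every enzyme of the route. The gene group therefore tends to move as a block, and Insig1 is itself a target of SREBP2, while Insig2 is controlled differently in liver.

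SREBP2 binds sterol regulatory elements beside CCAAT boxes, which bind the factor NF-Y, so the sequence just before the start of 6 member genes is shown to let the shared feature be seen. They are 3 genes that were high in 1 control library (Hmgcs1, Mvd, Msmo1) and 3 late-step genes whose values the comparisons turn on (Cyp51, Tm7sf2, Sc5d), so they were picked with values known. Each run is 250 bases that end at the base before the annotated start, 5′ to 3′ on the gene's strand, from RefSeq on GRCm38.p6, an earlier build than the GRCm39 of the counts. Capitals mark CCAAT or its reverse complement ATTGG and, in Hmgcs1, a match to the sterol regulatory element TCACNCCAC.
Hmgcs1, chr13:119690101-119690350, plus strand: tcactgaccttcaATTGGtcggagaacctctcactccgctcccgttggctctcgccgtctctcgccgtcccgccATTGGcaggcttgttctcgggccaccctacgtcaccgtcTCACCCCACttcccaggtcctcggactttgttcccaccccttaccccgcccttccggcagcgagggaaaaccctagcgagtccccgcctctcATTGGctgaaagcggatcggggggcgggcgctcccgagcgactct
Mvd, chr8:122443423-122443672, minus strand: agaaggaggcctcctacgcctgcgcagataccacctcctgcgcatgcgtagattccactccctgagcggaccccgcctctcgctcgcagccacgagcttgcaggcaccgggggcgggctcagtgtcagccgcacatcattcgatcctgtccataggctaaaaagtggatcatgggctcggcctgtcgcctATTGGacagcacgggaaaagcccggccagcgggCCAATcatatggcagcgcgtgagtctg
Cyp51, chr5:4104698-4104947, minus strand: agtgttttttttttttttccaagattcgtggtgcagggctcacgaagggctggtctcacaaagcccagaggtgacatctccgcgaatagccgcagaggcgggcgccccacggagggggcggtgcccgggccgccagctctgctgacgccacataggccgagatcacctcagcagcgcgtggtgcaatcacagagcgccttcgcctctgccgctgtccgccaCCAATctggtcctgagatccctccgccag
Tm7sf2, chr19:6067851-6068100, minus strand: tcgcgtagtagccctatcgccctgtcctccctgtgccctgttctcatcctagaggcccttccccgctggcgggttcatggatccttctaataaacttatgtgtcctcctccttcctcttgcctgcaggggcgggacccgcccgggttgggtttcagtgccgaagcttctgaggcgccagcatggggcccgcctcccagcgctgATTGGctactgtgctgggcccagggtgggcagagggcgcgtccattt
Msmo1, chr8:64733579-64733828, minus strand: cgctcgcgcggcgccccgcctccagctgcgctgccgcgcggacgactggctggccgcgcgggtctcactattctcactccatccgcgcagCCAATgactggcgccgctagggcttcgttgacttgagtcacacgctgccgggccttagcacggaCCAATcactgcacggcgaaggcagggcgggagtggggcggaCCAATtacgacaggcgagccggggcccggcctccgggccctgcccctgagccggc
Sc5d, chr9:42264301-42264550, minus strand: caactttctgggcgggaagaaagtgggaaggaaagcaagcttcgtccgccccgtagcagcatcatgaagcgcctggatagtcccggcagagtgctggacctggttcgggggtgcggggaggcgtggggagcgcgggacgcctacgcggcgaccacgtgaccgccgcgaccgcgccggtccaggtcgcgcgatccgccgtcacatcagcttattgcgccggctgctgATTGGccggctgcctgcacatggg

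Promoter windows of 300 bases (250 before to 50 after the start) were at hand for 23 of the 29 genes. CCAAT, on either strand, was in at least 1 window of 21 of the 23 genes, which is 91.3%, against 41.1% of all 27025 genes in the table. Some genes have several windows, and counted by window it was in 21 of 29 (72.4%), against 37.4% of all 32851 windows. Acat2 and Scap were the members without a match. The element TCACNCCAC, on either strand, was in 1 of the 23 genes, Hmgcs1, against 1.44% of all genes. Other forms of the sterol regulatory element were not searched, so genes without this match are not shown to lack one. TGACCT, which with its reverse complement is the core letters of a nuclear receptor element, was in 3 of the 23 genes, which is 13%, against 18.1% of all genes. In the Hmgcs1 run above the matches in capitals do not overlap. The matches describe letters in a window and say nothing of which factor was bound in these livers.

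Some libraries stood apart. The hPPARa female vehicle replicate 3 was high for most of the 29 genes and is described after the PFOA comparisons. KO female PFOA replicate 2 and KO female vehicle replicate 1 held transcripts of the Y-linked genes Ddx3y (4.07 and 1.86 CPM) and Eif2s3y (4.67 and 3.05 CPM), and KO male PFOA replicate 2 held Xist at 30.8 CPM, so these 3 libraries held RNA of both sexes. Calls that were lost without them are named below. For scale, male libraries had 37.15 to 55.19 CPM of Ddx3y, and female libraries had 425.5 to 874 CPM of Xist. How transcripts of the other sex came to be in the 3 libraries was not tested. The Ppara row held 8.42 to 25.1 CPM in KO libraries, against 17.0 to 39.6 CPM in hPPARa libraries, and because the deleted part is not given, it does not check the genotype labels.

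PFOA in KO livers raised 3 of the 29 genes and lowered none, at a Benjamini-Hochberg adjusted p under 0.05 in edgeR's quasi-likelihood test. Those 3 are 10.3% of the members, while 13.8% of the 15334 genes tested were called in either direction and 7.41% were called higher, so the share called is near the background. The fold changes of the members leaned upward, with 25 of 29 positive (86.2%, against 47.9% of all genes tested) and a median log2 fold change of 0.17, against -0.02 over all genes. The size of this median turned on single libraries: it was 0.05 without KO male PFOA replicate 1 and 0.34 without KO male PFOA replicate 3, and without the 3 libraries that held RNA of both sexes it was 0.15, with 26 of 29 positive and Tm7sf2 the 1 member called. The called genes were Tm7sf2 and Sc5d of the late steps and Soat2, which esterifies cholesterol for storage and secretion.

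Tm7sf2 encodes a sterol reductase that acts on the product of lanosterol demethylation. It had 88.8, 89.7 and 64.4 CPM in KO males on PFOA, against 46.1, 37.6 and 48.9 CPM in KO males on vehicle. KO females on PFOA had 125, 119 and 99.6 CPM of Tm7sf2, against 40.4 CPM in the KO female on vehicle. Every PFOA library was above every vehicle library, and the gap held within each sex. The log2 fold change of Tm7sf2 was 1.07 ± 0.15 (SE, 6 PFOA and 4 vehicle libraries; adjusted p = 0.000655). Tm7sf2 was called in all 17 alternative settings tried for it. An exon of Tm7sf2 overlaps the gene Vps51 on the same strand, and Vps51 had a log2 fold change of -0.28 (adjusted p = 0.079) in the same test.

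Sc5d encodes the desaturase that acts just before Dhcr7, the reductase of the last step. KO males on PFOA had 385, 326 and 293 CPM of Sc5d, and KO males on vehicle had 194, 126 and 265 CPM. KO females on PFOA had 384, 445 and 397 CPM, and the KO female on vehicle had 187 CPM. Here too the PFOA libraries were all above the vehicle libraries, although KO male vehicle replicate 3 came close to KO male PFOA replicate 3. The log2 fold change of Sc5d was 0.89 ± 0.18 (SE; adjusted p = 0.00781). The call was lost without KO female vehicle replicate 1 and without the 3 libraries that held RNA of both sexes, with an adjusted p of up to 0.151. Tm7sf2 and Sc5d were the 2 members whose KO libraries did not overlap between exposures, and 5.67% of all genes tested were higher in this way.

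Soat2 had a lowest, median and highest level of 40.2, 56.3 and 85.3 CPM in the 6 KO PFOA libraries, against 44.8, 32.5 and 45.1 CPM in KO males on vehicle and 36.7 CPM in the KO female on vehicle. The groups overlapped through KO female PFOA replicate 3. Its log2 fold change was 0.64 ± 0.19 (SE; adjusted p = 0.0454), and the call was lost in 11 of 17 alternative settings, with an adjusted p of up to 0.231.

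Of the other late-step genes in KO livers, Cyp51 and Nsdhl had larger errors than Tm7sf2 and Sc5d. Ebp (-0.02 ± 0.11, SE), Lbr (0.07 ± 0.19) and Hsd17b7 (-0.08 ± 0.21) had small log2 fold changes there. Cyp51, the lanosterol demethylase, had 79.7, 49.8 and 28.2 CPM in KO males on PFOA and 86.2, 86.9 and 61.2 CPM in KO females on PFOA, against 24.3, 27.2 and 38.9 CPM in KO males on vehicle and 25.4 CPM in the KO female on vehicle. KO male PFOA replicate 3 alone fell within the vehicle range. Its log2 fold change of 1.06 ± 0.33 (SE) was as large as that of Tm7sf2 but was not called (adjusted p = 0.0681). Nsdhl, a sterol dehydrogenase of the demethylation steps, had a log2 fold change of 0.97 ± 0.43 that was not called either. Of the 8 mevalonate and isoprenoid genes none was called in KO livers, and their log2 fold changes lay between 0.04 (Acat2, the cytosolic thiolase) and 1.13 (Idi1, the isomerase of isopentenyl diphosphate, whose level did not exceed 1.04 CPM in any library). Of the 3 squalene and lanosterol genes none was called, with log2 fold changes of 0.09 for Fdft1 (squalene synthase), 0.16 for Sqle (squalene epoxidase) and 0.02 for Lss (lanosterol synthase). The 26 members not called in KO livers spanned -0.08 (Hsd17b7, a reductase of the demethylation steps) to 1.13 (Idi1).

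**Figure D1:**
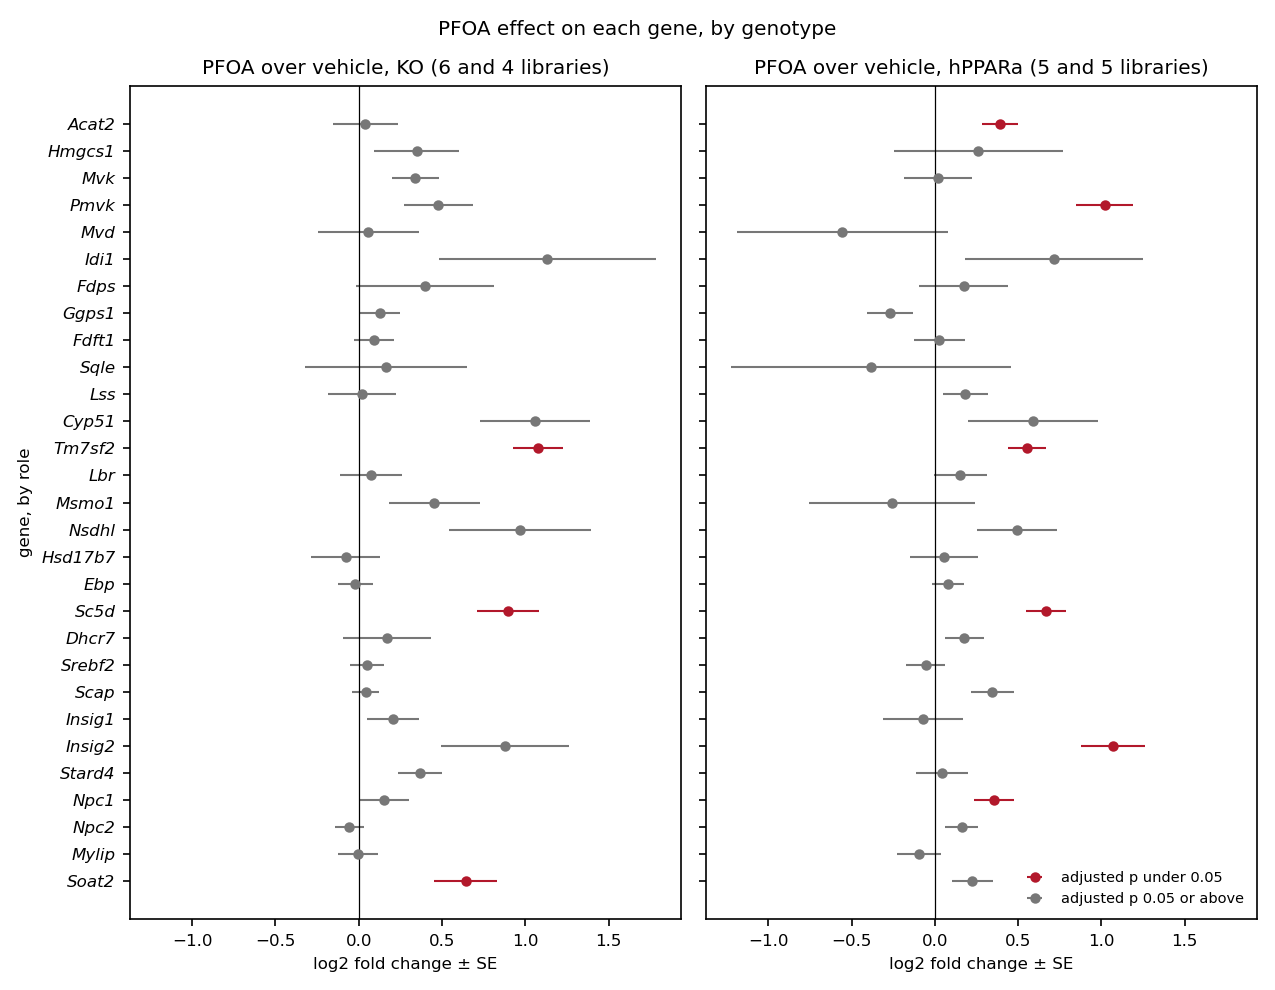
PFOA over vehicle for each of the 29 genes in KO livers (left) and hPPARa livers (right); points are log2 fold changes, bars are standard errors, and red marks an adjusted p under 0.05. Tm7sf2 and Sc5d are called in both panels, and most points lie right of 0.

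PFOA in hPPARa livers raised 6 of the 29 genes and lowered none. Those 6 are 20.7% of the members, while 22.6% of the 14400 genes tested were called in either direction and 12.8% were called higher. The members leaned upward, with 22 of 29 positive (75.9%, against 48.5% of all genes tested) and a median log2 fold change of 0.17, against -0.01 over all genes. The 6 genes were Pmvk and Acat2 of the mevalonate route, Tm7sf2 and Sc5d of the late steps, the sensor Insig2, and Npc1, which exports cholesterol from lysosomes.

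Pmvk encodes phosphomevalonate kinase. It had 24.8, 24.8 and 24.7 CPM in hPPARa males on PFOA, against 14.2 and 16.9 CPM in hPPARa males on vehicle. hPPARa females on PFOA had 46.0 and 49.6 CPM of Pmvk, against 13.7, 17.1 and 25.6 CPM in hPPARa females on vehicle. Within each sex the PFOA libraries were higher, but female vehicle replicate 3, at 25.6 CPM, was above the males on PFOA. The log2 fold change of Pmvk was 1.02 ± 0.17 (SE, 5 libraries a group; adjusted p = 0.00117), and the call held in all 16 alternative settings.

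Insig2 encodes an endoplasmic reticulum protein that retains SCAP. hPPARa males on PFOA had 271, 189 and 181 CPM of Insig2, and hPPARa males on vehicle had 88.7 and 149.5 CPM. hPPARa females on PFOA had 250 and 311 CPM, and hPPARa females on vehicle had 94.2, 143 and 104 CPM. No hPPARa PFOA library overlapped a vehicle library for Insig2. Its log2 fold change was 1.07 ± 0.19 (SE; adjusted p = 0.00218) and was called in all 16 alternative settings.

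Sc5d had 365, 393 and 303 CPM in hPPARa males on PFOA and 316 and 335 CPM in hPPARa females on PFOA, against 221 and 237 CPM in hPPARa males on vehicle and 158, 201 and 239 CPM in hPPARa females on vehicle. Its groups did not overlap, and the log2 fold change was 0.67 ± 0.12 (SE; adjusted p = 0.00154). Tm7sf2 had 114, 102 and 107 CPM in hPPARa males on PFOA and 113 and 123 CPM in hPPARa females on PFOA, against 75.6 and 75.3 CPM in hPPARa males on vehicle and 69.6, 63.5 and 100.4 CPM in hPPARa females on vehicle. The lowest PFOA library exceeded the highest vehicle library, female vehicle replicate 3, by a narrow gap, and the log2 fold change was 0.55 ± 0.12 (SE; adjusted p = 0.00414). Insig2, Sc5d and Tm7sf2 were the 3 members whose hPPARa libraries did not overlap between exposures, and 8.63% of all genes tested were higher in this way. Vps51, which overlaps Tm7sf2, had a log2 fold change of 0.07 (adjusted p = 0.635).

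Acat2 had a log2 fold change of 0.39 ± 0.11 (SE; adjusted p = 0.0204), and its call was lost in 3 of 16 alternative settings. Acat2 has a near-identical neighbour, Acat3, and the labels do not say how reads shared by the pair were counted. Npc1 had a log2 fold change of 0.35 ± 0.12 (adjusted p = 0.0488), and its call was lost in 11 of 16 settings. Scap, the escort of SREBP2, had a log2 fold change of 0.35 that was not called (adjusted p = 0.0673). Srebf2 itself had log2 fold changes of 0.05 ± 0.10 under PFOA in KO livers and -0.06 ± 0.12 in hPPARa livers, and Insig1 had 0.20 ± 0.16 in KO livers and -0.07 ± 0.24 in hPPARa livers, none of them called. Mylip, the ligase that marks lipoprotein receptors for degradation, had -0.01 in KO livers and -0.10 in hPPARa livers, also not called. The 23 members not called in hPPARa livers spanned -0.56 (Mvd) to 0.71 (Idi1), and Dhcr7 had 0.17 ± 0.26 in KO livers and 0.18 ± 0.12 in hPPARa livers.

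**Figure D2:**
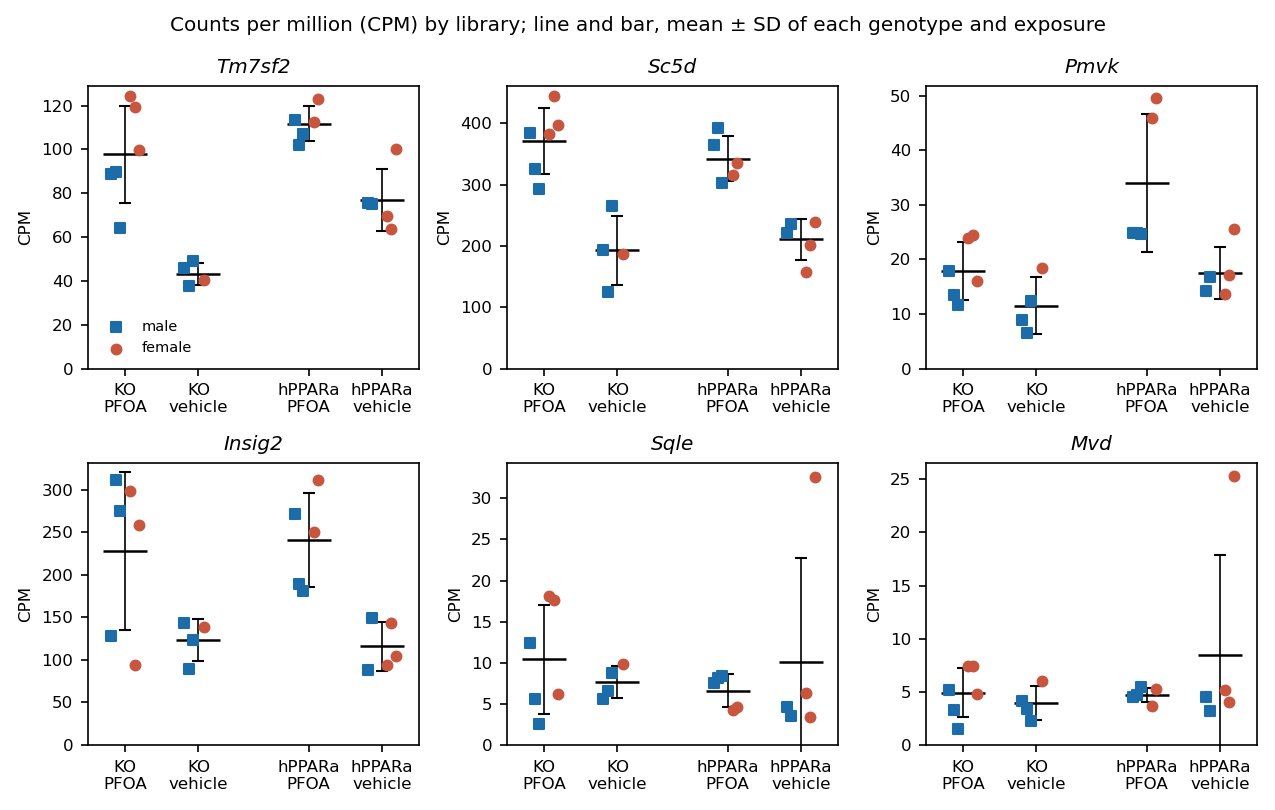
CPM of 6 genes in every library, by genotype and exposure, with squares for males and circles for females; lines and bars are the mean and SD of each genotype and exposure, and bars are clipped at 0. PFOA libraries are high for Tm7sf2 and Sc5d in both genotypes, while 1 hPPARa female vehicle library, at 32.6 CPM for Sqle and 25.3 CPM for Mvd, is above every other library for both of these genes.

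The high control library was hPPARa female vehicle replicate 3. It was above all 4 other hPPARa vehicle libraries in 21 of the 29 genes, against 23.7% of all genes tested, and below all 4 in 0 of the 29, against 21.4% of all genes tested. The median ratio of its level to the mean of the other 4 was 1.47 over the members and 0.996 over all genes. The ratio was at least 2 for 9 members, against 2.6% of all genes. These are descriptions of 1 library, with no test.

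Sqle, which is a slow step of the route, had 32.6 CPM in this library, against 4.68 and 3.49 CPM in hPPARa males on vehicle and 6.34 and 3.35 CPM in the other hPPARa females on vehicle, a ratio of 7.30 to their mean. Mvd, the decarboxylase that ends the mevalonate steps, had 25.3 CPM, against 4.49, 3.22, 5.18 and 4.02 CPM, a ratio of 5.98. Both levels were above those of every other library of the study. Msmo1, the oxidase that removes methyl groups after lanosterol, had 199.9 CPM against a mean of 56.2 CPM in the other 4. Hmgcs1, which makes the substrate of the mevalonate step, had 108 CPM against a mean of 35.9 CPM. Insig1 had 196.8 CPM against a mean of 88.8 CPM, and Cyp51 had 67.1 CPM against 23.1 CPM. The other members with a ratio of at least 2 were Idi1 (3.55), Fdps (2.07), which makes farnesyl diphosphate, and Mvk (2.06), the mevalonate kinase.

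The high levels did not cover every member. Insig2 had a ratio of 0.875 and Npc1 a ratio of 0.891, and Ebp (an isomerase of the late steps), Scap, Soat2, Lbr (a second sterol reductase) and Ggps1 (which makes geranylgeranyl diphosphate) had ratios between 0.996 and 1.09. The highest of these, Ggps1, and Mylip at 1.08 were within the range of the other 4 libraries. Of the 9 fatty acid synthesis genes listed for SREBP1, 7 had a ratio above 1, with 2.07 for Scd1, 1.964 for Thrsp, 1.504 for Me1 and 1.37 for Fasn at the top, while Srebf1 had 0.832 and Acly 0.972. This library also had the lowest normalisation factor of the 20 (0.895) and the most genes with a count (24481). Its 7 hepatocyte markers summed to 186000 CPM, which includes Alb at 145900 CPM, against sums of 95200 to 132000 CPM in the other 4 hPPARa vehicle libraries and an Alb level of 67280 to 101000 CPM there. The part of these features in the high levels was not tested.

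The library bears on the PFOA comparison in hPPARa livers. Without it, 7 of the 29 genes were higher under PFOA and 0 were lower, against 11.9% of 14343 genes called higher, 27 of 29 fold changes were positive, and the median log2 fold change was 0.25. Cyp51 then had a log2 fold change of 0.996 ± 0.14 (SE; adjusted p = 0.000671), against 0.59 ± 0.39 (adjusted p = 0.321) with it. Nsdhl had 0.70 ± 0.14 (adjusted p = 0.00605) without it, against 0.49 ± 0.24 (adjusted p = 0.17) with it. Npc1 was no longer called (adjusted p = 0.0955), and the other 5 genes called with the library were also called without it. Sqle changed sign, to 0.46 without the library against -0.38 with it, as did Mvd (0.14 against -0.56) and Msmo1 (0.24 against -0.26), none of them called in either fit.

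**Figure D3:**
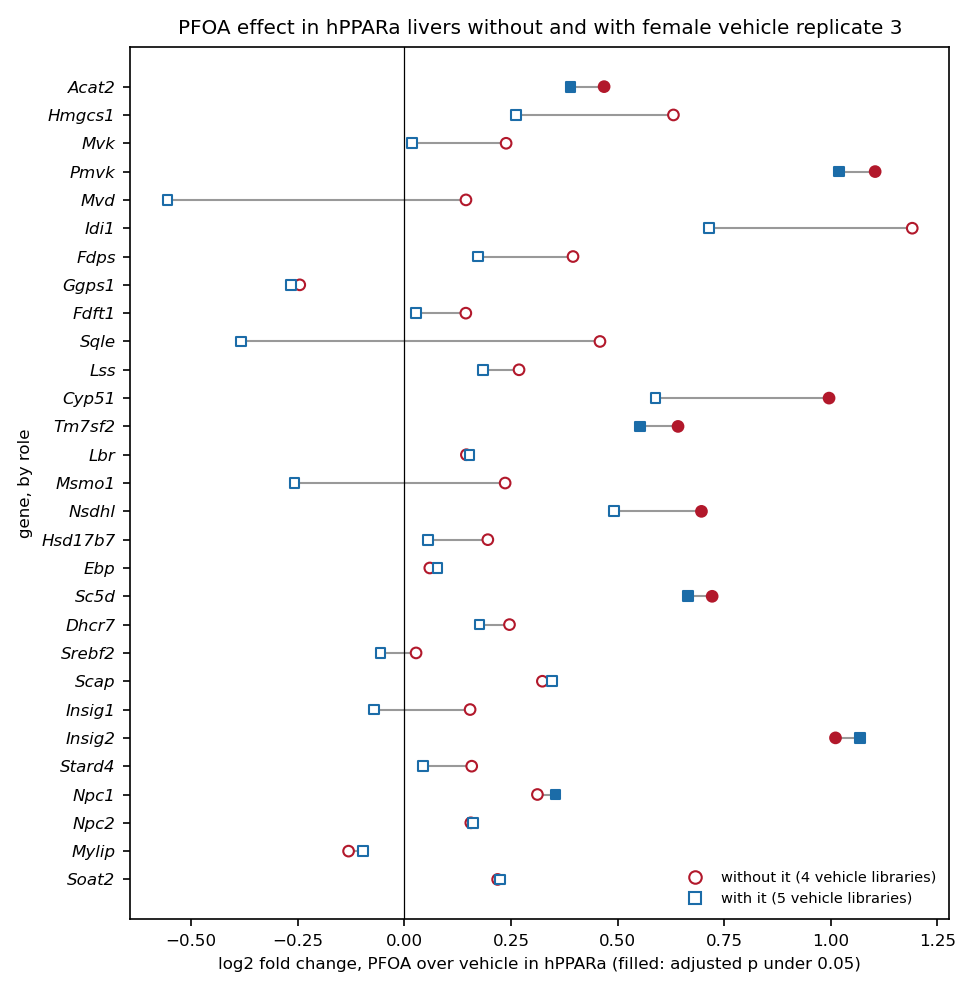
Log2 fold change of PFOA over vehicle in hPPARa livers for each gene, without hPPARa female vehicle replicate 3 (red circles) and with it (blue squares); filled symbols have an adjusted p under 0.05. Sqle, Mvd, Msmo1, Cyp51 and Hmgcs1 move right without the library, and Insig2, Npc1 and Soat2 hardly move.

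The PFOA response of the members was not shown to differ between the genotypes. The test of the difference, KO minus hPPARa, called 0 of the 29 genes with edgeR and 0 with DESeq2, against 1.17% of 15811 genes with edgeR, and 2 members had an unadjusted p under 0.05. Without the 3 KO libraries that held RNA of both sexes it also called 0. Tm7sf2 had the smallest adjusted p, 0.226, with a difference in log2 response of 0.52 ± 0.20 (SE; 95% interval 0.13 to 0.90). The other member under that unadjusted threshold was Ggps1, with a difference of 0.39 ± 0.18. The next 3 by p were Scap (-0.31 ± 0.16), Pmvk (-0.54 ± 0.29) and Soat2 (0.41 ± 0.23). The intervals of Sqle (-1.38 to 2.47) and Mvd (-0.84 to 2.06) were too wide to exclude a large difference either way.

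Between genotypes on PFOA, 2 of the 29 genes were called and both were lower in KO livers, against 14.9% of 15811 genes called in either direction and 7.79% called lower. Pmvk had a lowest, median and highest level of 11.6, 16.9 and 24.5 CPM in KO PFOA livers, against 24.7, 24.8 and 49.6 CPM in hPPARa PFOA livers. Every KO PFOA library was below every hPPARa PFOA library, and Pmvk was the 1 member with such a gap, against 4.96% of all genes lower in this way. Its log2 fold change was -0.95 ± 0.19 (SE; adjusted p = 0.0018), with an adjusted p of 0.0538 in males alone. Scap had 90.04, 98.1 and 114 CPM at its lowest, median and highest in KO PFOA livers, against 99.3, 125 and 163 CPM in hPPARa PFOA livers, and its groups overlapped. Its log2 fold change was -0.39 ± 0.10 (adjusted p = 0.0142), and the call was lost in 4 of 28 settings, among them without hPPARa female PFOA replicate 2 and without the 3 KO libraries, with an adjusted p of up to 0.144. Stard4, a carrier that moves sterol between membranes, had a log2 fold change of 0.42 ± 0.14 that was not called (adjusted p = 0.055). The median over the members was -0.09, and it became 0.01 without KO male PFOA replicate 3 and -0.13 without KO male PFOA replicate 1.

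Between genotypes on vehicle, 1 of the 29 genes was called, and it was lower in KO livers, against 3.77% of genes called in either direction and 1.76% called lower. Tm7sf2 had 46.1, 37.6 and 48.9 CPM in KO males and 40.4 CPM in the KO female, against 75.6 and 75.3 CPM in hPPARa males and 69.6, 63.5 and 100.4 CPM in hPPARa females. No KO vehicle library reached the lowest hPPARa vehicle library, and Tm7sf2 was the 1 member with such a gap, against 3.5% of all genes lower in this way. The log2 fold change of Tm7sf2 was -0.74 ± 0.15 (SE; adjusted p = 0.0089). The call was lost without KO female vehicle replicate 1 and without the 3 KO libraries that held RNA of both sexes, with an adjusted p of up to 0.235 and a log2 fold change between -0.86 and -0.41 over the settings. On PFOA the log2 fold change of Tm7sf2 was -0.22 ± 0.13 and was not called. Of the 29 fold changes on vehicle 6 were positive and their median was -0.13, which became 0.04 without hPPARa female vehicle replicate 3. Each genotype comparison shares libraries with the PFOA comparisons.

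**Figure D4:**
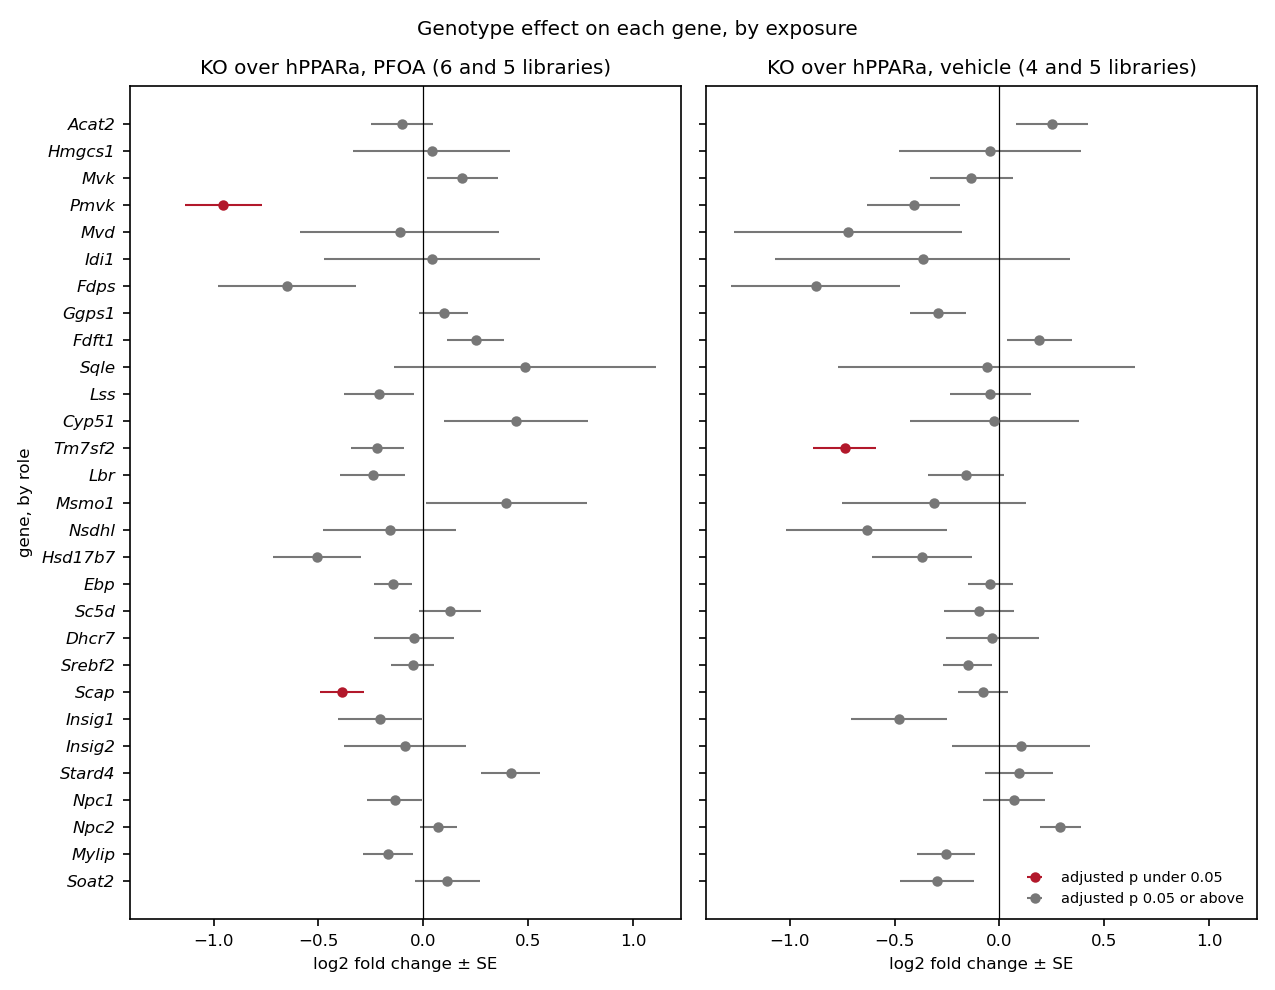
KO over hPPARa for each of the 29 genes on PFOA (left) and on vehicle (right); points are log2 fold changes, bars are standard errors, and red marks an adjusted p under 0.05. Pmvk and Scap are called on PFOA at -0.95 and -0.39, and Tm7sf2 is called on vehicle at -0.74.

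Within each sex fewer libraries were compared. In KO males and in KO females Tm7sf2 was the 1 member called under PFOA, with log2 fold changes of 0.88 (adjusted p = 0.00355) and 1.49 (adjusted p = 0.00338), against 9.1% and 5.31% of all genes called, but the female value rests on 1 vehicle library, which held Y-linked transcripts and is assumed in this fit to vary like the other groups. In hPPARa males Sc5d was the 1 member called (0.63, adjusted p = 0.0396), against 8.2% of all genes, and the call was lost in 8 of 14 settings, with an adjusted p of up to 0.244. In hPPARa females 5 members were called, all higher, against 18.4% of all genes called and 10.5% called higher: Pmvk (1.34), Insig2 (1.29), Sc5d (0.70), Scap (0.62) and Tm7sf2 (0.59). Without female vehicle replicate 3 this count became 10, and without female PFOA replicate 2 it became 1. The shares of all genes called in these reduced fits are not given here, so the changes are not read as particular to the members. The test of whether the PFOA response differed by sex called 0 members in either genotype with edgeR and 0 with DESeq2, against 0.241% of genes in KO livers and 0.104% in hPPARa livers, and 3 members in KO livers and 4 in hPPARa livers had an unadjusted p under 0.05. By p, the 5 leading differences in log2 response, males minus females, were those of Npc1 (0.67), Ebp (-0.45), Tm7sf2 (-0.61), Acat2 (-0.73) and Mylip (0.39) in KO livers. In hPPARa livers they were those of Scap (-0.56), Npc2 (-0.41), Pmvk (-0.67), Ebp (-0.38) and Lbr (0.58).

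Males had lower levels than females for a few members. In KO livers 3 members were called, all lower in males, against 3.41% of genes called in either direction and 2.15% called lower: Srebf2 at -0.60 ± 0.10 (adjusted p = 0.00667), Npc2 at -0.55 ± 0.09 (adjusted p = 0.00465) and Mvk at -0.60 ± 0.14 (adjusted p = 0.0282), the last of which was lost in 9 of 15 settings, with an adjusted p of up to 0.302. Npc2 binds cholesterol inside lysosomes and hands it to Npc1. Srebf2 had 34.0, 29.9 and 24.0 CPM in KO males on PFOA, against 44.2, 42.0 and 43.4 CPM in KO females on PFOA. On vehicle, Srebf2 had 26.3, 29.8 and 26.5 CPM in KO males, against 44.1 CPM in the KO female, and the sexes did not overlap in either exposure. Without the 3 KO libraries that held RNA of both sexes, 0 of the 29 were called, with adjusted p of up to 0.222 for Srebf2 over its settings. In hPPARa livers 2 members were called, both lower in males, against 3.48% of genes called and 1.94% called lower: Npc2 at -0.52 ± 0.10 (adjusted p = 0.0132) and Mylip at -0.52 ± 0.13 (adjusted p = 0.0486), the second of which was lost in 10 of 14 settings. The members' median log2 difference between males and females was -0.30 in KO livers and -0.13 in hPPARa livers. It was -0.45 in KO livers without KO female vehicle replicate 1 and -0.16 without KO male PFOA replicate 3, and in hPPARa livers it was -0.21 without female PFOA replicate 1 and 0.02 without female vehicle replicate 3.

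Within a group, the levels of the members varied together from library to library. Counting genes above the mean of their genotype, KO males on PFOA had 26, 10 and 5 of 29, and KO females on PFOA had 21, 26 and 24. KO males on vehicle had 3, 1 and 11, and the KO female on vehicle had 11. The hPPARa PFOA males had 12, 20 and 22 and the females 16 and 21, against 3 and 7 in hPPARa vehicle males and 4, 4 and 23 in hPPARa vehicle females. Over all genes each library had between 49.3% and 51.4% above the mean.

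Replicates of the same condition could thus stand at opposite ends. KO male PFOA replicate 1 was the highest of its 3 replicates in 21 of 29 members, against 35.2% of all genes, and replicate 3 was the lowest in 22 of 29, against 33.7% of all genes. Sqle had 12.4 CPM in replicate 1 against 2.51 CPM in replicate 3, and Fdps had 4.59 against 0.818 CPM. The fatty acid synthesis genes showed the same order in these 2 libraries, with a mean deviation from the genotype mean of 0.60 log2 units in replicate 1 and -0.58 in replicate 3. Leaving out KO male PFOA replicate 3 took the number of members called under PFOA in KO livers to 5. The share of all genes called in that fit is not given here.

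Over 19 libraries, as deviations from the means of the 7 groups with replicates, the median correlation between pairs of members was 0.37 (Pearson's r, a description across libraries that share normalisation), and the median between members and all genes was 0.004. Without hPPARa female vehicle replicate 3 the median among members was 0.35. Cyp51 (0.73), Mvk (0.69) and Msmo1 (0.68) followed the other members most closely. Insig2 (-0.28), Npc1 (-0.18) and Soat2 (-0.17) had negative medians. The SD within groups was widest for Sqle, at 0.91 log2 units, and narrowest for Ebp, at 0.078, with a median of 0.32 over the members against 0.25 over all genes tested.

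**Figure D5:**
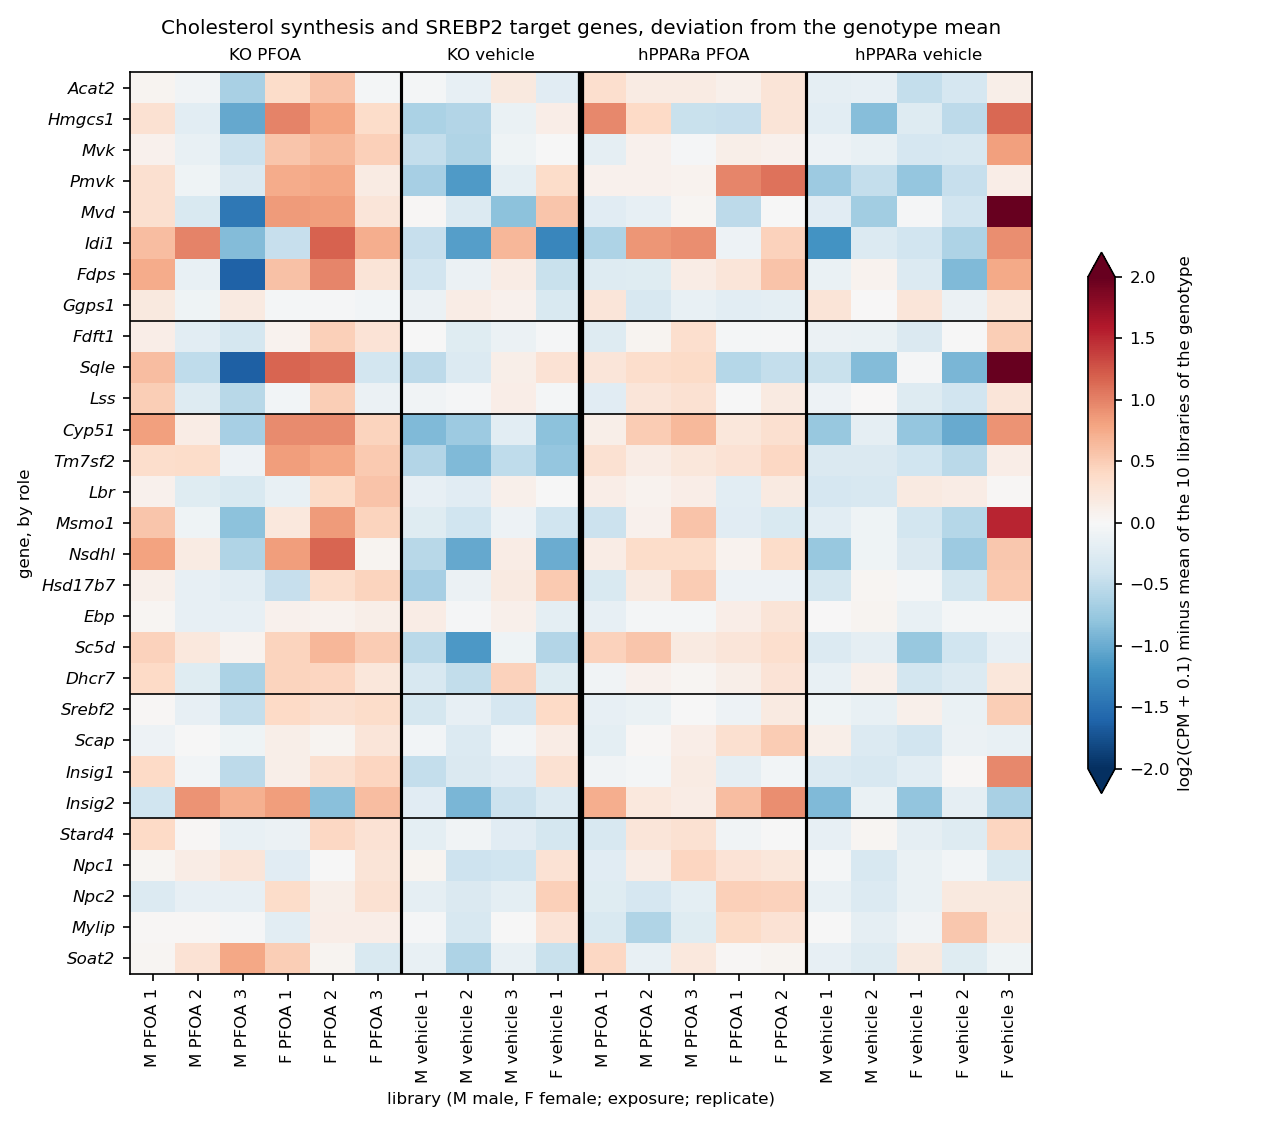
Deviation of each gene from the mean of its genotype, as log2(CPM + 0.1), in the 20 libraries; rows are genes by role and columns are libraries. Red prevails in the columns of KO PFOA females, KO male PFOA replicate 1 and hPPARa female vehicle replicate 3, and the Insig2 row runs against the others in several of them. Genes above the mean also numbered 20 and 22 of 29 in hPPARa male PFOA replicates 2 and 3 and 21 in hPPARa female PFOA replicate 2. The hPPARa male and female PFOA replicates 1 had 12 and 16.

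Insig2 and Insig1 went different ways in some of the KO PFOA livers, but both were high in KO female PFOA replicate 3. Insig2 had 128, 311 and 275 CPM in KO males on PFOA and 298.5, 93.7 and 258 CPM in KO females on PFOA, against 144, 88.9 and 124 CPM in KO males on vehicle and 139 CPM in the KO female on vehicle. Of the 6 PFOA libraries, 4 were above every vehicle library and 2 were within the vehicle range. The log2 fold change of Insig2 was 0.88 ± 0.38 (SE; unadjusted p = 0.0506 in edgeR's quasi-likelihood test), and it was not called. The 2 libraries within the vehicle range, KO male PFOA replicate 1 and KO female PFOA replicate 2, were those with the highest mean deviation of the fatty acid synthesis genes (0.60 and 0.67 log2 units), while the other 4 lay between -0.58 and 0.12. This pairing was picked with values known and was not tested. In KO vehicle livers, male replicate 2 had both the lowest mean deviation (-0.605) and the lowest Insig2 (88.9 CPM). Insig1 had 106, 77.1 and 55.9 CPM in KO males on PFOA and 86.8, 99.5 and 108 CPM in KO females on PFOA.

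Genes around the route, outside the 29, were read against the 7.41% of all genes called higher and 6.36% called lower under PFOA in KO livers, and the 12.8% higher and 9.76% lower in hPPARa livers. Of 9 genes that process SREBPs or degrade enzymes when sterols are high, 1 rose under PFOA in KO livers (Erlin1, 0.36) and 3 rose in hPPARa livers, Rnf145 (0.51) and Erlin1 (0.39) among them, with list medians of 0.22 in KO livers and 0.15 in hPPARa livers. Of 9 tested genes of oxysterols and their receptor LXR, Lpcat3, a phospholipid remodelling enzyme, rose in both (0.53 in KO livers and 1.05 in hPPARa livers), and Cyp7b1, an oxysterol hydroxylase, fell by 1.34 log2 units in KO livers. Of 10 genes of other isoprenoid branches, Pdss1, which builds the tail of coenzyme Q, fell by 0.73 in KO livers, and none was called in hPPARa livers.

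Of 8 other sterol genes, 3 rose under PFOA in KO livers, and 2 rose and 1 fell in hPPARa livers. Nceh1, a cholesteryl ester hydrolase, rose by 1.83 ± 0.26 log2 units under PFOA in KO livers and by 1.27 ± 0.16 in hPPARa livers. Lipa, the lysosomal acid lipase, rose by 0.60 in KO livers and 0.54 in hPPARa livers, and Tmem97 rose by 0.48 in KO livers. Aacs, which activates acetoacetate, fell by 1.70 ± 0.51 in hPPARa livers (adjusted p = 0.0475 in edgeR's quasi-likelihood test). In KO livers its log2 fold change was -1.30 ± 0.60 and was not called (adjusted p = 0.199 in the same test). The difference in response, KO minus hPPARa, was 0.40 ± 0.81 and was not called. Of 9 fatty acid synthesis genes none was called under PFOA in KO livers, and 4 rose in hPPARa livers: Me1 (1.16), Scd1 (0.93), Acss2 (0.90) and Fasn (0.52). In KO livers these had 0.75 ± 0.42 (SE), 0.94 ± 0.59, 0.57 ± 0.27 and -0.17 ± 0.40, in the same order. The test of a difference in PFOA response between genotypes called 0 of these 9 genes. It also called none in the other lists of sterol genes above, so calls in 1 genotype alone are not read as a difference.

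Markers of some cell types moved with PFOA too. They were read against 13.8% of all genes called in either direction in KO livers and 22.6% in hPPARa livers. In KO livers all 5 cholangiocyte markers fell, with a summed level of 15.7 to 46.4 CPM on PFOA against 50.5 to 186 CPM on vehicle. The 186 CPM was that of KO female vehicle replicate 1, and KO males on vehicle had 50.5 to 67.3 CPM. In hPPARa livers all 5 had negative log2 fold changes, and 0 were called. In KO livers 3 of 7 Kupffer cell markers rose (195 to 320 CPM on PFOA against 105 to 220 CPM on vehicle), while 3 of the 7 fell in hPPARa livers (92.5 to 269 CPM on PFOA against 109 to 320 CPM on vehicle). Of 6 endothelial markers 2 rose in KO livers and 4 in hPPARa livers, and S100a8 rose in both while S100a9, the other neutrophil marker tested, was not called in either. Of the 4 markers of dividing cells 3 rose in KO livers (8.68 to 16.5 CPM on PFOA against 2.2 to 5.37 CPM on vehicle) and all 4 rose in hPPARa livers (11.7 to 41.3 CPM on PFOA against 2.21 to 7.56 CPM on vehicle). Of the 7 hepatocyte markers 2 fell in KO livers (57500 to 76800 CPM on PFOA against 76300 to 91700 CPM on vehicle) and 4 fell in hPPARa livers (71100 to 110000 CPM on PFOA against 95200 to 186000 CPM on vehicle). Of 6 stellate cell and fibroblast markers 1 fell in each genotype, and of 4 T and B cell markers 0 were called in either. No marker of these lists was without a count in a group. In whole tissue, fewer cells of a type and less RNA per cell cannot be told apart, and the part of these shifts in the members' values was not tested.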

How the data were processed

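The authors deposited 2 tables of counts per gene symbol, 1 for each genotype, of whole-liver RNA sequenced by BGI. Per the submitters' processing notes, STAR 2.5.3, featureCounts 1.6.1, cutadapt 1.15, FastQC 0.11.5, edgeR 3.36.0 and the build GRCm39 were used. The annotation, the strand setting and how shared reads were counted go unstated in the labels, and 11 of the 29 genes have an exon that overlaps another gene in GENCODE M21. The members and gene lists were chosen with earlier results of these data known.

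Counts were fitted with edgeR 4.0.16 in R 4.3.3 (quasi-likelihood, robust, TMM factors, low counts filtered by group), with Benjamini-Hochberg adjustment over all genes tested and a threshold of 0.05. The PFOA and sex effects came from a fit of each genotype with exposure and sex as terms, the within-sex and interaction effects from a fit of the 4 groups of a genotype, and the genotype effects from 1 fit of all 20 libraries. Standard errors (SE) are the absolute log2 fold change over the square root of F, and 95% intervals are normal ones. CPM use the TMM factors of the 20-library fit. Every member past the threshold is named in each comparison, with the 5 smallest p where none passed, and from each other list of sterol or lipid genes up to 4 genes called under PFOA are named, except 1 that is not reported here. Whether replicates came from separate animals is not stated, so p-values measure the spread between these samples. Same-numbered libraries did not deviate together (r from -0.128 to 0.106 over 22 pairs), so the numbers were not used as pairs. Replicates of a group differed by more than counting noise (chi-square per gene 7.94 to 46.4). The code was tested on simulated counts. Alternatives were DESeq2 1.42.0, other size factors, no filter on low counts, a replicate block, other models and leaving out libraries. The 3 KO libraries that held RNA of both sexes were left out in an alternative chosen after seeing the data, alone and with hPPARa female vehicle replicate 3. Low counts limit the precision of genes such as Idi1. Exons of Idi1 and Fdps overlap the genes Gm48574 and Gm43738, and whether reads were lost in this way was not tested.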

Additional observations from a re-analysis of the deposited data

Results flagged for a closer look

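Within each genotype and exposure, the highest or lowest of the 29 genes' libraries was compared with the rest. In 11 of 116 sets 1 library lay farther from its nearest neighbour than Dixon's 95% limit allows. Chance gives about 1 in 20 for separate sets. These genes vary together and share libraries, so the count is not read as an excess. Of the 11 flags, 9 fell in hPPARa female vehicle replicate 3. In hPPARa female vehicle replicate 3, the highest of its 5 libraries, these were Hmgcs1 (108 CPM, next 42.1), Mvk (21.1, next 11.2), Pmvk (25.6, next 17.1), Mvd (25.3, next 5.18), Idi1 (0.900, next 0.336), Sqle (32.6, next 6.34), Cyp51 (67.1, next 31.8), Msmo1 (199.9, next 65.2) and Insig1 (196.8, next 102.7). Ggps1 stood apart in hPPARa male PFOA replicate 1 (9.58 CPM, next 7.35). Npc2 stood apart in KO female vehicle replicate 1 (92.6 CPM, next 58.3), the only female of its group and a library with Y-linked transcripts.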

How the results depend on the processing

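The genes called with all libraries gave 416 values under alternatives, of which 342 kept their call, 74 lost it and 0 changed sign. Genes not called were not counted here, and some of them, such as Sqle, Mvd and Msmo1, did change sign. With no filter on low counts, 5 members were called for PFOA in KO livers, 5 in KO males, 3 in KO females and 4 in hPPARa males, and 7 for sex in KO livers. DESeq2 called 3 members in KO males, 3 in KO females and 3 in hPPARa males, and 6 for sex in KO livers. With the replicate block, 0 members were called in hPPARa males and 1 for sex in hPPARa livers, and the block moved no other count by over 1.5 times (2 members for PFOA in KO livers and 5 in hPPARa livers). Without the 3 KO libraries that held RNA of both sexes, 1 member was called for PFOA in KO livers, 1 for KO against hPPARa on PFOA, 0 on vehicle and 0 for sex in KO livers. Without those 3 and hPPARa female vehicle replicate 3, the genotype counts were 1 on PFOA and 0 on vehicle. In males only, 0 were called for genotype on PFOA. The shares of all genes called in these settings are not set beside the counts. A change in a count is therefore not read as a change of the members alone. The cause was not tested.

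Leaving out 1 library at a time, the number of members called ranged between 1 and 5 for PFOA in KO livers (1 without KO female vehicle replicate 1, 5 without KO male PFOA replicate 3), 4 and 7 in hPPARa livers, 1 and 2 in KO males, 1 and 2 in KO females, 0 and 5 in hPPARa males, and 1 and 10 in hPPARa females. For genotype it was 1 to 3 on PFOA (1 without hPPARa female PFOA replicate 2) and 0 to 1 on vehicle (0 without KO female vehicle replicate 1). For sex it was 1 to 6 in KO livers and 0 to 3 in hPPARa livers. The 3 tests of a difference in response called 0 members in each case. These counts too are given without the share of all genes called in each reduced fit. Low counts limit the precision of genes such as Idi1.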
